A study of Bos taurus with 14 samples.

Results

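The gene name bta-mir-2887-1 belongs to 2 Ensembl genes, ENSBTAG00000054661 and ENSBTAG00000054257, of the 27607 genes whose reads were counted in the liver of newborn calves. The loci were found by that name in the list of differentially expressed genes of the study, which was used as a dictionary. Both were therefore chosen on the difference between the maternal diets in these calves, and that difference is described below without a test. The livers came from 14 female calves, 7 per diet, born to crossbred Angus-based heifers that had been bred with female-selected semen of a single bull. Control (CON) dams ate a basal diet. VTM dams ate the same diet with a vitamin and mineral premix of 113 g per heifer per day, from 60 days before breeding until calving. All calves were separated from their dams before suckling, received colostrum and milk replacers, and were sampled 30 h after birth, per the labels. VTM calf 10 and CON calf 19 were left out by the study for low alignment, and their counts are used here where all 14 calves are named.

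A microRNA is cut from a short RNA hairpin and silences messenger RNAs that pair with its seed. Ribosomal RNA is the RNA core of the ribosome and makes up most of the RNA in a cell. Cytoplasmic ribosomal RNA is transcribed by RNA polymerase I and carries no long poly(A) tail. Sequencing of polyadenylated RNA, the kind of RNA the labels give for these libraries, is meant to leave out ribosomal RNA and hairpins alike. A read was counted for a locus when it had a unique position in the genome and overlapped that gene alone, so reads that fit several copies of a repeated sequence are not among the counts below.

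In RefSeq's annotation of the later assembly ARS-UCD2.0, 1 gene carries the name bta-mir-2887-1 and 1 the name bta-mir-2887-2. The bta-mir-2887-2 gene overlaps the pseudogene LOC112444681 there, and the next genes on the chromosome are the ribosomal RNA genes LOC112444653 and RN18S1. The bta-mir-2887-1 gene lies between the protein-coding genes LOC112442278 and LOC112443213. This annotation does not pair its genes with Ensembl identifiers, so neither Ensembl locus could be matched to one of them. The description of these loci as a readout of ribosomal RNA could not be checked against sequence here.

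The loci were not equal. ENSBTAG00000054661 held 11446 to 104031 counts per calf and ENSBTAG00000054257 held 9 to 151. The first locus was the 12th most counted gene in the library of CON calf 19 and the 121st in that of VTM calf 34, with a median rank of 54 over the 14 calves. The second ranked between 6507 and 13009. Counts were not divided by gene length, so the ratio compares reads and not molecules.

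The share of the first locus in the total counts of a library ran from 0.0792% to 0.758%, a 9.58-fold range, with a median of 0.182% over all 14 calves. At this depth counting error is small. The 95% Wilson interval was 0.0779 to 0.0805% for VTM calf 34 and 0.753 to 0.763% for CON calf 19. Such intervals cover counting error alone, since reads copied by PCR are not independent molecules.

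In the 6 VTM calves of the study the first locus was lowest in calf 34, at 0.0792%, had a median of 0.1003% and was highest in calf 4, at 0.305%. In the 6 CON calves it was lowest in calf 37, at 0.0887%, had a median of 0.335% and was highest in calf 31, at 0.574%. The groups overlapped. Of the CON calves, 4 of 6 were above every VTM calf, whereas CON calf 37 lay among the low VTM calves and VTM calf 4 lay close to CON calf 25, at 0.317%. The calves left out by the study were at opposite ends, with VTM calf 10 at 0.0855% and CON calf 19 at 0.758%. In bulk tissue, fewer cells of a type and less RNA per cell cannot be told apart.

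The second locus was low in every library. In raw CPM, which is the count divided by the library total and scaled as in CPM without further normalization, it was at 0.556 to 1.86 in the VTM calves of the study, with a median of 1.18, and at 0.941 to 8.52 in the CON calves, with a median of 2.46. VTM calf 40 was lowest, with 9 counts and a 95% Clopper-Pearson interval of 0.254 to 1.05 raw CPM, in a library where low counts were scarce across all genes. CON calf 31 was highest, with 151 counts and an interval of 7.21 to 9.99 raw CPM. Again 4 of 6 CON calves were above every VTM calf, and CON calf 37 and CON calf 7 were not. CON calf 19 was at 6.34 raw CPM, above all calves but CON calf 31.

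**Figure D1:**
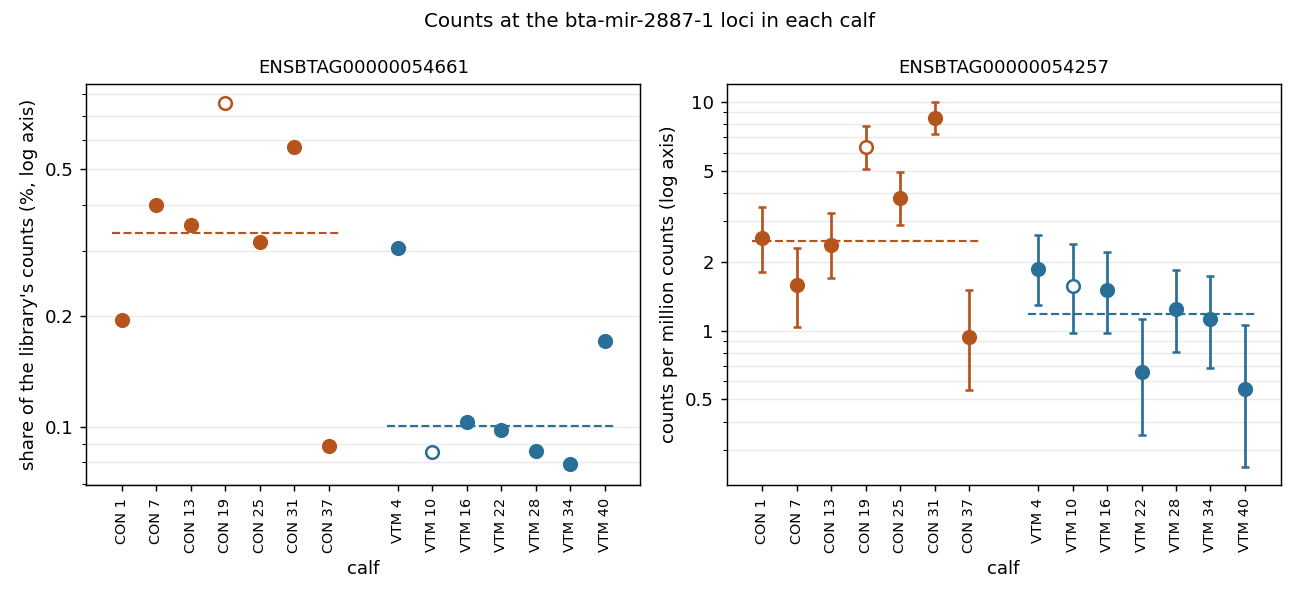
Share of counts at ENSBTAG00000054661 (left, percent of the library) and raw CPM at ENSBTAG00000054257 (right) in each of the 14 calves, both on log axes. Error bars are 95% intervals of counting error, dashed lines are medians of the 6 calves per group of the study, and open circles are the calves that the study left out. The lowest CON calf, calf 37, sits at 0.0887% among the VTM calves, and VTM calf 4 sits at 0.305% near the CON calves.

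With the fit across all genes (edgeR, 12 calves), the log2 fold change of VTM relative to CON was -1.40 (standard error 0.47) for the first locus and -1.79 (standard error 0.61) for the second. With TMM normalization, mean CPM of the first locus were 1354 ± 798 for the VTM calves and 3572 ± 2526 for the CON calves (± SD, n = 6 per diet). Those of the second were 1.12 ± 0.469 for the VTM calves and 3.92 ± 4.21 for the CON calves (± SD, n = 6 per diet). The calling rule of the study, an unadjusted significance level of 0.05 and a log2 fold change of 0.5 or more in size, was applied to every gene. Of the 13307 genes tested, 3.71% met this, and 2.85% met it with lower values in VTM. With all 14 calves the shares were 2.07% and 1.62%, and with DESeq2 on the 12 calves 4.74% and 3.54%. Both loci met it in each of these fits, which the choice of the loci had fixed for the 12 calves, and nothing is read from that count. After Benjamini-Hochberg adjustment over all genes in edgeR or DESeq2, 0 genes passed 0.05 in any of these fits. In the 12 calves, 690 genes passed it unadjusted in edgeR and the lowest adjusted p was 0.791. CON calf 31 carried a large part of both differences. Without it the log2 fold change was -0.97 for the first locus and -1.01 for the second, which then no longer met the rule, and without VTM calf 4 it was -1.76 and -1.95. With all 14 calves it was -1.64 and -1.79.

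Cell type markers were read in the same calves. Of 32 markers, 7 were paired with an identifier, each of them through the study's list of genes that differed between the diets, so a difference was a condition of their being named. The log2 fold change of VTM relative to CON was -1.12 (standard error 0.35) for COL1A1, a collagen chain of fibroblasts, and -0.84 (standard error 0.19) for DCN, a proteoglycan of the same cells. It was -0.92 (standard error 0.30) for KRT7 and -0.64 (standard error 0.27) for KRT19, keratins of the bile duct. Of the hepatocyte proteins, TTR was at -0.99 (standard error 0.52) and AHSG at 0.67 (standard error 0.28), and LRAT, which stores retinol as esters in stellate cells, was at 0.83 (standard error 0.20). Their part in the difference at the loci was not tested.

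The ratio of the loci also differed between calves. The first held 674 to 3070 times as many counts as the second in the 12 calves of the study, with a median of 889. In VTM calf 10 the ratio was 545, with an interval of 356 to 881 from counting error alone. In VTM calf 40 it was 3070, with an interval of 1617 to 6714, and in CON calf 7 it was 2540, with an interval of 1746 to 3855. CON calf 31, with the most counts at the second locus, had a ratio of 674 and an interval of 574 to 796. The intervals of VTM calf 40 and CON calf 7 lie wholly above that of CON calf 31. These calves were named because their ratios lie at the ends of the range. Such intervals also do not cover reads copied by PCR, so they cannot exclude counting error as the source of these differences. The ratio of VTM calf 40 rests on 9 counts at the second locus. Low counts were scarce across that library, with 318 genes at 1 to 9 counts and 15395 at 0, the fewest and the most of all calves. Its interval does not cover this.

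Across all 14 calves the 2 shares rose and fell together, with Pearson's r = 0.84 (permutation test, p = 0.00136, adjusted p = 0.00499 over 11 relations) and Spearman's rho = 0.75 (permutation p = 0.00327, adjusted p = 0.00899). Without CON calf 19 and CON calf 31, the calves farthest from the median, r was 0.59 (permutation p = 0.0393). Within the 7 CON calves r was 0.79 and rho 0.64 (exact permutation p = 0.0347 and 0.139). Within the 7 VTM calves r was 0.36 and rho 0.11 (exact permutation p = 0.471 and 0.840), so the relation did not pass 0.05 there. Both loci were picked on the same difference between the diets, so the pooled values are not independent evidence of a relation.

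**Figure D2:**
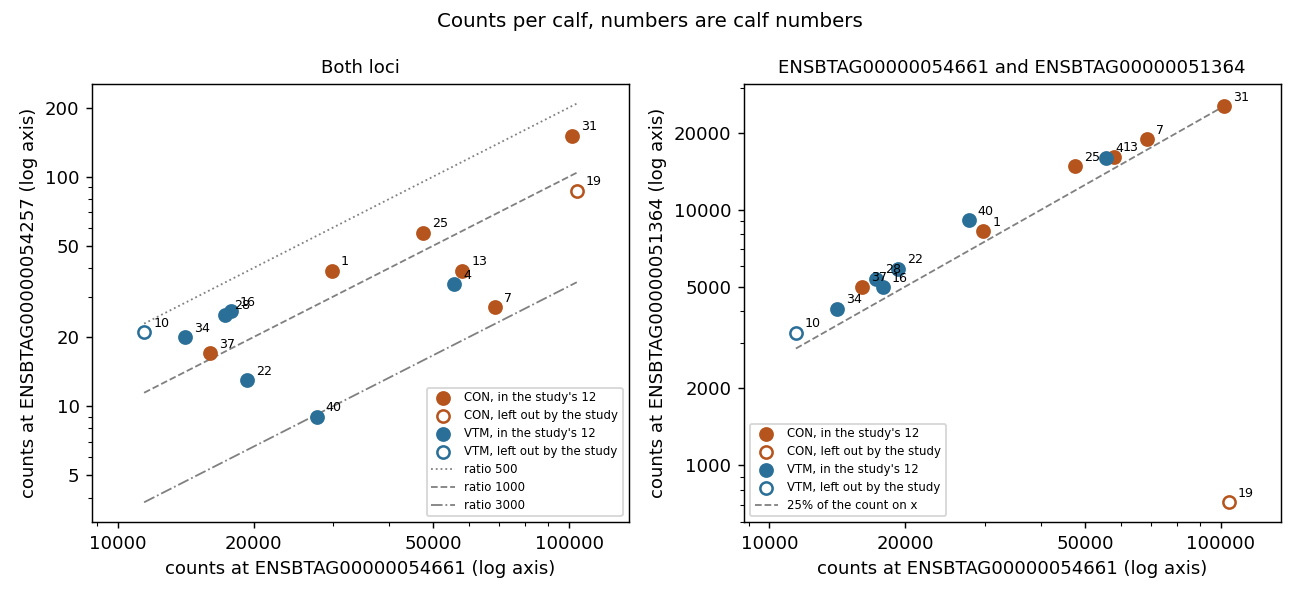
Counts at ENSBTAG00000054661 on the x axes against counts at ENSBTAG00000054257 (left) and at ENSBTAG00000051364 (right), per calf, on log axes; point labels are calf numbers, open circles are the calves left out by the study, and grey lines mark fixed ratios. The points on the left cross the lines, from a ratio of 545 in VTM calf 10 to 3070 in VTM calf 40, and on the right 13 calves follow the line while CON calf 19 lies far below it.

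A gene that tracked the first locus closely is ENSBTAG00000051364, which the study lists as protein-coding and without a name. It was singled out after its values were seen. Over the 12 calves of the study its log2 CPM had r = 0.996 with that of the first locus, the highest of 13305 genes. Its count was 25.02 to 32.9% of the count at the first locus in 13 of the 14 libraries, with a median of 28.8%. These shares stood in a narrow band although the counts behind them ranged from 3295 in VTM calf 10 to 25459 in CON calf 31. In CON calf 19 the gene had 716 counts, which is 0.688% of the first locus (95% Wilson interval 0.640 to 0.740%). The library with the largest share of the first locus thus lacked most of the counts that went with it elsewhere, and over all 14 calves r was 0.37.

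By a fixed rule, the 5 genes most like each locus were taken by Pearson's r of log2 CPM over all 14 calves, out of 13309 genes. For the first locus they were the mitochondrial ribosomal RNA genes ENSBTAG00000043567 (r = 0.89) and ENSBTAG00000043570 (r = 0.83), the RNA of ribonuclease P (RNaseP_nuc, ENSBTAG00000044427, r = 0.82), and ENSBTAG00000049916 (r = 0.85) and ENSBTAG00000042458 (r = 0.83), which the tables used here do not pair with names. Mitochondrial ribosomal RNAs are the RNA core of the ribosome inside mitochondria. Ribonuclease P trims the 5′ ends of transfer RNA precursors, and its RNA is a product of RNA polymerase III without a long poly(A) tail. In all, 7 genes had r above 0.8. The 3 genes with names or RNA classes come from the list of the study, so their likeness includes the difference between the diets on which they and the loci were chosen.

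The second locus was most like other genes. ND4L, ND2 and ND5, subunits of respiratory complex I encoded in mitochondrial DNA, had r = 0.90, 0.90 and 0.89. HMGN5, a protein that binds nucleosomes, had r = 0.87, as had a gene without a name. ENSBTAG00000043567 came 83rd for this locus (r = 0.76), whereas ND4L came 188th for the first (r = 0.59). Over the 12 calves of the study alone, none of these genes was among the 5 most like the second locus. The r of the mitochondrial genes changed little there, at 0.89 for ND4L (rank 13), 0.89 for ND2 (rank 14) and 0.88 for ND5 (rank 33). More genes had r above 0.8 with this locus over the 12 calves, 275 against 40 over all 14. Of the 5 named for the first locus, ENSBTAG00000043567 was still among them there (rank 3, r = 0.87), whereas ENSBTAG00000043570 came 19th (r = 0.80) and RNaseP_nuc 28th (r = 0.78). With 9 to 151 counts, counting error takes a larger part in its values.

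Ribonuclease P RNA was at 0 to 6.91 raw CPM in the 6 VTM calves of the study, with a median of 0.722, and at 0.332 to 17.1 in the CON calves, with a median of 7.28. Its count was 0 in VTM calf 40, which allows up to 3 counts from counting error alone, in a library where low counts were scarce across all genes. In CON calf 19 it was 2917 counts, or 213 raw CPM. VTM calf 4, the VTM calf with the most of the first locus, was also the highest of that group in ribonuclease P RNA, with 126 counts where the other VTM calves had 25 or fewer. CON calf 37, the CON calf with the least of the first locus, had 6 counts, the fewest of its group. This gene was taken up because its counts were like those of the first locus in these calves, so its relation to the loci is a description without a test. Over all 14 calves r between the shares was 0.74 and rho 0.77. Without CON calf 19 and CON calf 7, the farthest from the median, r was 0.95 and rho 0.64. Within CON r was 0.77 and rho 0.96, and within VTM r was 0.85 and rho -0.14. Calf 4 was far above the other VTM calves in both measures. For the second locus r was 0.52 and rho 0.86 over 14 calves, 0.43 and 0.46 within CON, and 0.69 and 0.79 within VTM.

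The 2 mitochondrial ribosomal RNA genes together took 0.0241 to 0.0566% of counts in the VTM calves of the study and 0.0268 to 0.179% in the CON calves. The highest of these was CON calf 31, and CON calf 19 was above it, at 0.532%. Their share went with that of the first locus over all 14 calves, with r = 0.85 and rho = 0.82 (permutation p = 8e-05 and 0.00064, adjusted p = 0.00044 and 0.00352). Without CON calf 19 and CON calf 31 r was 0.70 (permutation p = 0.00978). Within CON r was 0.87 and rho 0.89 (exact permutation p = 0.00218 and 0.0123, n = 7), and within VTM r was 0.30 and rho 0.21 (exact permutation p = 0.469 and 0.662, n = 7). For the second locus r was 0.71 and rho 0.60 over 14 calves (permutation p = 0.0344 and 0.0243, adjusted p = 0.0758 and 0.0445). Within CON its r was 0.64 and rho 0.82 (exact permutation p = 0.129 and 0.0341, n = 7), and within VTM they were -0.62 and -0.64 (exact permutation p = 0.130 and 0.139, n = 7). The ribosomal RNA genes alone were planned as an alternative to the mitochondrial share. Both are also among the 5 genes most like the first locus in these calves, so the values for that locus are not independent of that choice. They and the loci were listed by the study from the difference between these diets. The pooled p-values are therefore not independent evidence of a relation.

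The share of all 17 mitochondrial genes listed by the study, 12 of them protein-coding, 2 ribosomal and 3 transfer RNA genes was also set beside the first locus. Over 14 calves r was 0.52 and rho 0.40 (permutation p = 0.0746 and 0.155, adjusted p = 0.121 and 0.190). Without CON calf 25 and CON calf 31, the calves farthest from the median, r was 0.50 and rho 0.17 (permutation p = 0.09996 and 0.603). In the 12 calves of the study r was 0.69 and rho 0.38 (permutation p = 0.0246 and 0.228), and without CON calf 19 alone they were 0.69 and 0.28 (permutation p = 0.0210 and 0.356), so r passed 0.05 there and rho did not. CON calf 31 was highest in the mitochondrial share, at 18.3%, and had the largest share of the first locus among the 12 calves of the study. CON calf 7 and VTM calf 4, with 2.71% and 1.93% mitochondrial counts, had 0.401% and 0.305% at the first locus. In the VTM group the order ran the other way, with r = -0.58 and rho = -0.46 (exact permutation p = 0.185 and 0.302, n = 7), and in CON r was 0.43 and rho 0.54 (exact permutation p = 0.337 and 0.236, n = 7). Neither passed 0.05. In CON calf 19 the ribosomal RNA genes made up 10.99% of the mitochondrial counts, against 0.887 to 3.42% in the other 13 calves.

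For the second locus the relation with the mitochondrial share had r = 0.86 and rho = 0.63 over 14 calves (permutation p = 0.00504 and 0.0177, adjusted p = 0.0139 and 0.0390). Within CON r was 0.85 and rho 0.93 (exact permutation p = 0.0248 and 0.00675, n = 7), and within VTM r was 0.13 and rho 0.07 (exact permutation p = 0.789 and 0.906, n = 7). The mitochondrial genes, too, were listed by the study from the difference between these diets.

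The number of genes with 1 to 9 counts was 318 to 3349 per calf. It was lowest in VTM calf 40, CON calf 19 and CON calf 31, at 318, 1265 and 1531. The last 2 were the calves with the most of the first locus, whereas VTM calf 40 was at 0.171%, near the median of all calves. Over 14 calves r with the first locus was -0.43 and rho -0.22 (permutation p = 0.110 and 0.454, adjusted p = 0.152 and 0.4999). Without CON calf 19 and VTM calf 40, the farthest from the median, r was -0.55 and rho -0.098 (permutation p = 0.0597 and 0.766). Within CON r was -0.80 and rho -0.61 (exact permutation p = 0.0321 and 0.167, n = 7), and within VTM r was -0.12 and rho 0.07 (exact permutation p = 0.899 and 0.906, n = 7). Without VTM calf 40 alone, r over the other calves was -0.76 (permutation p = 0.00624), past 0.05, whereas rho was -0.29 (permutation p = 0.335) and did not pass. Without CON calves 19 and 31 r was 0.054 and rho 0.15. The second locus went opposite ways in the groups, with r = -0.86 and rho = -0.61 within CON (exact permutation p = 0.0167 and 0.167, n = 7) and r = 0.70 and rho = 0.89 within VTM (exact permutation p = 0.00437 and 0.0123, n = 7). Over 14 calves its r was -0.39 and rho 0.07 (permutation p = 0.132 and 0.819, adjusted p = 0.161 and 0.819). The difference between the groups was not tested. VTM calf 40 had 9 counts at the second locus, and the other VTM calves had 2719 to 3140 genes with 1 to 9 counts. CON calves 19 and 31 had the fewest such genes of their group and the most counts at the second locus. Values for the second locus without these calves were not computed.

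The percentage of reads aligned, listed by the study for its 12 calves, did not go with the first locus in Pearson's r, at -0.09 (permutation p = 0.792, adjusted p = 0.792), and rho was -0.57 (permutation p = 0.0589, adjusted p = 0.0810). Without CON calf 1 and CON calf 25, the calves farthest from the median, r was -0.12 and rho -0.66 (permutation p = 0.856 and 0.0418). Within CON r was 0.26 and rho -0.09 (exact permutation p = 0.579 and 0.919, n = 6), and within VTM r was -0.33 and rho -0.77 (exact permutation p = 0.406 and 0.103, n = 6). For the second locus r was -0.16 and rho -0.59 (permutation p = 0.612 and 0.0453, adjusted p = 0.673 and 0.0711). CON calf 19 and VTM calf 10, left out by the study for low alignment, were at 0.758% and 0.0855% for the first locus. They have no listed percentage, so these values do not cover poorly aligned libraries.

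**Figure D3:**
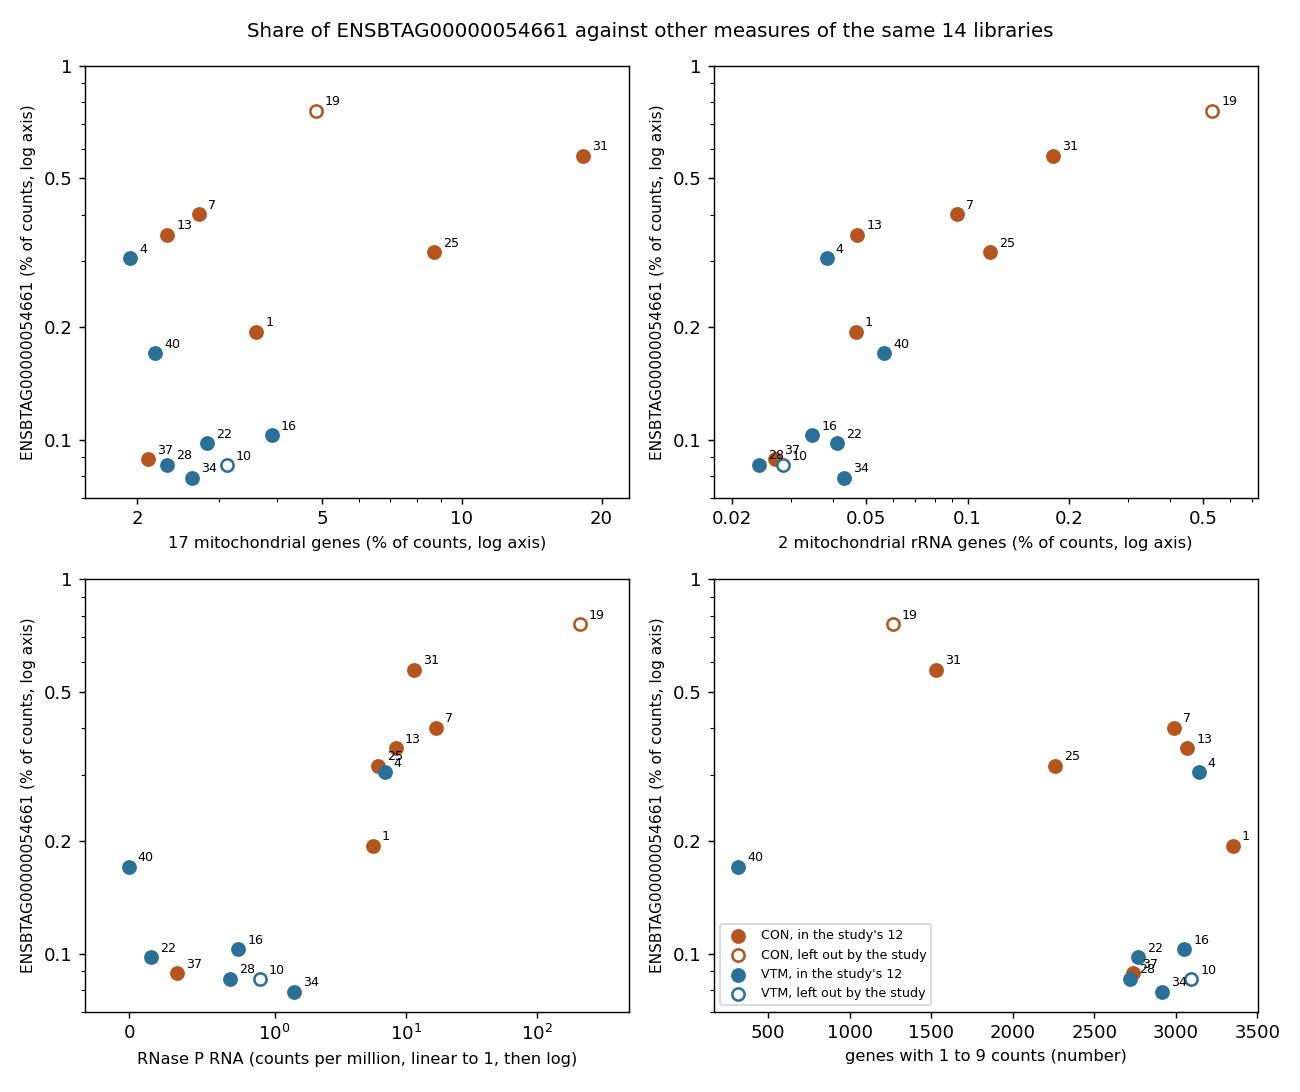
Share of counts at ENSBTAG00000054661 (y axes, log) against the share of 17 mitochondrial genes, the share of 2 mitochondrial ribosomal RNA genes, ribonuclease P RNA in raw CPM and the number of genes with 1 to 9 counts, in 14 calves. Filled circles are the 12 calves of the study, open circles the 2 left out, and labels are calf numbers. CON calf 19 is at the far right for ribonuclease P RNA, at 213 raw CPM, and for mitochondrial ribosomal RNA, at 0.532%, and VTM calf 40 is alone at the left of the last panel, at 318 genes.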

How the data were processed

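Directional libraries were made from liver RNA of 14 calves. After removal of adapters and poor reads, the authors mapped to ARS-UCD1.2 using STAR 2.7.5. The deposited values are unnormalized counts for the genes of Ensembl release 109. GeneCounts of STAR counts reads with a unique position, so reads that fit several copies of a repeated sequence are not in the table. The strand column used is not given in the sources used here. Totals were 13382264 to 20125409 counts per calf. Groups and calf numbers come from the sample titles.

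The loci, the mitochondrial genes and the other lists were chosen with earlier results of these data known. Gene names came from supplementary tables, which pair 625 identifiers with names, and the percentages aligned from another, for 12 calves. edgeR 4.0.16 (filterByExpr, TMM, quasi-likelihood, condition alone) in R 4.3.3 was fitted to the 12 calves that the study kept, and DESeq2 1.42.0 was an alternative. The edgeR fit was tested on simulated data. Log2 CPM used a prior count of 2. Shares are percent of the raw total. Correlations used 100000 resamples, or all 5040 orders for 7 calves (numpy 2.4.6, scipy 1.17.1), with 2-sided p-values adjusted by Benjamini-Hochberg over 11 relations. These 11 include the relations of both loci with ribonuclease P RNA, taken up after the data were seen. Mitochondrial ribosomal RNA, planned as an alternative to the mitochondrial share, was counted as a relation of its own. The relations of the second locus with these measures were added to those planned for the first. Small p-values of such added relations can lower the adjusted values of the other relations. The genes named are both loci, the 5 most like each, the mitochondrial genes as a group, and listed genes with a name. Of 66 genes for ribosomal RNA synthesis and processing, 1 could be paired with an identifier, and of 32 cell type markers 7, so neither list was tested, nor were ribosomal protein genes or RNAs without a poly(A) tail. Each calf is 1 replicate.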

Additional observations from a re-analysis of the deposited data

Results flagged for a closer look

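Within each group of 7 calves, 8 measures were searched for a calf that stands apart by Dixon's criterion, 16 groups in all. Chance marks about 1 in 20 where values are normal and measures independent, which was not shown for these related measures of the same libraries. Ribonuclease P RNA and ENSBTAG00000051364 were taken up after their values were seen, so their flags cannot be set against that rate. In 7 cases a calf did. VTM calf 4 stood apart in the share of ENSBTAG00000054661, at 0.305%, and in ribonuclease P RNA, at 6.91 raw CPM. CON calf 19 stood apart in ribonuclease P RNA, at 213 raw CPM, in mitochondrial ribosomal RNA, at 0.532% of counts, and in the count of ENSBTAG00000051364 relative to ENSBTAG00000054661, at 0.688%. CON calf 31 stood apart in the mitochondrial share, at 18.3%, and VTM calf 40 in the number of genes with 1 to 9 counts, at 318. No calf stood apart in the second locus or in the ratio of the loci. What sets these libraries apart was not tested.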

How the results depend on the processing

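The log2 fold changes of both loci and the differences in share kept their direction under every alternative that gave a value. The second locus did not meet the calling rule without CON calf 31, and met it otherwise. With 1 calf left out, the log2 fold change was -1.76 to -0.97 for ENSBTAG00000054661 and -1.9996 to -1.01 for ENSBTAG00000054257, and the median ratio 835 to 943. A minimum of 10 counts in every library gave no value for the second locus. The 494 genes past the threshold became 1003 without a filter on low counts and 275 with all 14 calves, and 286 to 1039 with 1 calf left out, lowest without CON calf 31 and highest without CON calf 37.

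The correlation of the first locus with the mitochondrial share passed 0.05 in the 12 calves of the study (r = 0.69, with a rho of 0.38 that did not pass), with mitochondrial genes and both loci left out of the total (0.60) and with the ribosomal RNA genes alone (0.85), and ran from 0.34 to 0.69 with 1 calf left out. It was 0.24, with a rho of 0.08, without CON calves 19 and 31, chosen after seeing the data, and it reversed within VTM (-0.58). That with the number of low-count genes passed 0.05 within CON (-0.80), reversed without CON calves 19 and 31 (0.054, chosen after seeing the data), and ran from -0.76 without VTM calf 40 to -0.23 without CON calf 19. In rho it did not pass within CON (-0.61) or without VTM calf 40 (-0.29). That with the percentage aligned reversed within CON (0.26). Within VTM the relations with the second locus (0.36) and mitochondrial ribosomal RNA (0.30) no longer passed 0.05. The pooled values of both include the difference between the diets on which these genes were chosen. Ribonuclease P RNA was added after the data were seen, and its relation is described without a test. Its r within VTM was 0.85, whereas its rho there was -0.14, so the measures differed in sign. The causes were not tested. Every mitochondrial gene of a reference table could not be used, since the table holds no Ensembl identifiers. No paired analysis was possible because the groups share no calf numbers.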

Other observations

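UBTF, a factor for RNA polymerase I, had TMM CPM of 60.5 ± 7.02 for the VTM calves and 52.97 ± 12.2 for the CON calves (± SD, n = 6 per diet). RPS27L, a relative of a ribosomal protein, had 20.8 ± 4.09 for the VTM calves and 39.5 ± 29.01 for the CON calves. The small nucleolar RNA SNORD104, which like ribonuclease P RNA has no long poly(A) tail, was at 0 to 4.46 raw CPM over the 14 calves. Its r with the first locus in log2 CPM was 0.11 over these and 0.44 over the 12 calves of the study, and CON calf 19 and VTM calf 40 were at 0 counts.

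The hepatocyte proteins TTR and AHSG were found in every library, at 123 to 1554 and 3162 to 15513 raw CPM. Keratins of the bile duct were lower, with KRT19 at 13.2 to 45.97 and KRT7 at 10.4 to 62.4 raw CPM. Among genes of stellate cells and fibroblasts, COL1A1 was at 284 to 1799, DCN at 125 to 337 and LRAT at 5.08 to 19.6 raw CPM. None of the markers listed for red cells, macrophages, sinusoidal endothelium and leukocytes was paired with an identifier. The lists held 8, 4, 4 and 2 genes.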
